A study of Mus musculus with 22 samples.

Results

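The OAS family comprises the oligoadenylate synthetases, enzymes that recognise double-stranded RNA, and their OAS-like relatives. Its 8 members here were Oas1a, Oas1b, Oas1c, Oas1g, Oas2, Oas3, Oasl1 and Oasl2. They were taken by gene symbol from the probe annotation, which gave them 18 of the 45281 probes, and the family was picked out for its levels in pristane-treated mice, so those levels are described here and not tested. Total RNA from whole frozen spleens of 22 cyclin D1 transgenic mice was hybridised to Illumina bead arrays, 1 array per mouse, and the deposited normalized log2 intensities were used. The labels name 7 mice that lacked Bim in their B cells and had developed disease, labelled MCL (diseased Bim-deleted), 7 with the same genotype and no disease (non-diseased Bim-deleted), and 8 that carried the cyclin D1 transgene only and had no disease (transgene-only). The transgene was therefore shared by all 22 mice, and every mouse received sheep red blood cells (SRBC). SRBC was combined with pristane in 5 mice (1 diseased Bim-deleted, 2 non-diseased Bim-deleted and 2 transgene-only) and with irradiation in 9 mice (3 of each kind). It was given alone in 8 mice (3 diseased Bim-deleted, 2 non-diseased Bim-deleted and 3 transgene-only). The labels give no animal ages, strain, transgene promoter or Cre line, no mouse in the series went without SRBC, and no mouse without the transgene is among them.

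Oligoadenylate synthetases are made after interferon reaches a cell. When they bind double-stranded RNA they join ATP into short oligoadenylate chains, which act as an antiviral signal inside the cell. The OAS-like proteins share the fold but carry ubiquitin-like domains, and mouse Oasl1 lacks the enzyme activity and is known for holding back translation of Irf7, the interferon regulatory factor that amplifies interferon production. In spleen the family is read as part of the interferon response. Pristane, a hydrocarbon oil injected into the peritoneum, is known to raise that response in mice. All 8 members lie on chromosome 5 in GRCm38.p6, in a stretch that holds Oasl2 and Oasl1 and, farther along, Oas2, Oas3, Oas1c, Oas1b, Oas1g and Oas1a. Oas1b, the flavivirus resistance gene of mice, is annotated there as a transcribed pseudogene.

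RefSeq promoters (GRCm38.p6, 250 bases before to 50 after the start of the transcript listed) were available for 6 of the 8 members; those of Oas1b and Oas2 were not analysed here. The 4 promoters below are shown because they belong to members with large, small and no differences between stimuli described further on. Capitals mark matches, on either strand, to the core of the interferon-stimulated response element: GAAA and a further GAAA with any 2 bases (NN) between them. Overlapping matches run together. All 4 windows are written 5′ to 3′ on the gene's own strand.
Oas1g (chr5:120887564-120887863, minus strand): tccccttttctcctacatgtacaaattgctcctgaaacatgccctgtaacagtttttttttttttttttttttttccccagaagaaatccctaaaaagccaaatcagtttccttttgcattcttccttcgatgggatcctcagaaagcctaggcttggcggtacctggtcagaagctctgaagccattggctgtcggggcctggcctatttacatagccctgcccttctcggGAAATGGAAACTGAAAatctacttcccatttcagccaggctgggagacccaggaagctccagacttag
Oas1a (chr5:120907476-120907775, minus strand): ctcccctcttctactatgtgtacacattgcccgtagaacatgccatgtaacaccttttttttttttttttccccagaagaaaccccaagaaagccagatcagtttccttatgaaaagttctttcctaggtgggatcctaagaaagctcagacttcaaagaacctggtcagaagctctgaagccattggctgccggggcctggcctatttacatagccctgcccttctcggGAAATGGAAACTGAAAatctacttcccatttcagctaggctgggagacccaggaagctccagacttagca
Oas1c (chr5:120812465-120812764, minus strand): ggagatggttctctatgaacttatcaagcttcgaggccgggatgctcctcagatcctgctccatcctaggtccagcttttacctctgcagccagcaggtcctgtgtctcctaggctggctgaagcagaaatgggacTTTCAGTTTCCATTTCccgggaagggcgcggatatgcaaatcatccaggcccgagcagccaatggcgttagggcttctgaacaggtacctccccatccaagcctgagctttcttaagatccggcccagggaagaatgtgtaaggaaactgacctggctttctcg
Oasl2 (chr5:114896684-114896983, plus strand): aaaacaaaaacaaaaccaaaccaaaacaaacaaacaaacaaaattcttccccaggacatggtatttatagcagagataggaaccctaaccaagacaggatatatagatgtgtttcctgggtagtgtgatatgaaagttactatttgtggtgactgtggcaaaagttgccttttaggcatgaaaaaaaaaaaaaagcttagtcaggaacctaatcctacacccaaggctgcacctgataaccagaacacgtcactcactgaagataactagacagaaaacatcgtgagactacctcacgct
The first 3 hold 2 overlapping matches each, which begin 18 bases before the start in Oas1g, 20 before it in Oas1a and, on the opposite strand, 114 before it in Oas1c. Oas3 holds 1 match, 75 bases before its start, and the windows of Oasl1 and Oasl2 hold none. Of 32851 mouse promoters of the same length, 3.44% hold this motif. The shorter GAAANGAAA, searched on both strands, is in 3.17% of promoters and among the members only in Oas3, 4 bases after the start. TTCNNNGAA, the interferon-gamma-activated site, reads the same on both strands apart from its N positions; it is in 8.3% of promoters and among the members only in Oas1a, 98 bases before the start. The Oas1g and Oas1a windows are the pair with the closest match, at 85.3% identity (261 of 306 aligned columns), against 45.9% to 51.6% for the other 14 pairs. These matches describe letters and were not tested as binding sites.

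The number of arrays limits the precision of every value, since bead arrays carry no count of molecules. Each array had the same median, 6.55, and the 40th percentile of 6.52 is taken here as the edge of background. A probe was kept if it was above its array's 40th percentile in at least 7 arrays, which left 30013 probes. Taking the brightest probe per named gene gave 20463 features. Of these, 14500 were named genes, and the others were probes without a single gene symbol, each kept as its own feature. Of the family's 18 probes 14 were kept, and each of the 8 genes had at least 1. Several probes of a gene moved together where they were above background: the 2 brighter Oas1g probes had a Pearson correlation of 0.94 over the 22 mice, the brightest pair of Oasl1 probes 0.94 and the brightest pair of Oasl2 probes 0.92. The other 3 Oas1g probes stayed between 6.38 and 6.64, and the second Oas3 probe between 6.44 and 6.56, close to background in all 22 mice. Oas1g, Oas2, Oasl1 and Oasl2 had clear signal in their highest mice. By contrast, the highest mouse reached 7.17 for Oas3, 7.10 for Oas1b, 6.92 for Oas1a and 6.80 for Oas1c. Differences of those 4 genes are compressed near background. The lowest SRBC-alone mice were also near background for Oas2 (6.66) and Oasl1 (6.74), so differences of Oas2 and Oasl1 may be compressed as well. Oas1 paralogs are similar in sequence and the probes' specificity was not checked, so signal shared among Oas1a, Oas1b, Oas1c and Oas1g cannot be told apart.

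Whole spleens differed in their cell content, and the 4 pristane spleens without disease each lay outside the 17 spleens without pristane in at least 1 marker list. The first transgene-only pristane mouse had the lowest summed level of neutrophil markers of all 22 mice (mean log2 intensity 7.21 over 7 of 8 listed genes, against 9.47 to 13.06 in the others) and of erythroid markers (7.04 over 4 of 7 genes, against 8.75 to 12.78). B cell levels were 8.10 and 8.65 in the non-diseased Bim-deleted pristane mice and 7.79 in the second transgene-only pristane mouse (5 of 7 genes, Pax5 under 7 in all mice), against 9.01 to 9.37 in mice without pristane. The same 3 spleens had neutrophil levels of 12.75, 13.05 and 13.06, against at most 12.18 without pristane. The diseased pristane mouse, at 9.19 for B cells and 11.17 for neutrophils, lay within those ranges. In bulk spleen, fewer cells of a type and less RNA per cell cannot be told apart.

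The OAS genes with clear signal were highest in pristane spleens, and most so in those without disease. Oas1g, a synthetase of the Oas1 group, had a log2 intensity of 9.09 in the diseased Bim-deleted pristane mouse, 10.09 and 10.31 in the non-diseased Bim-deleted and 9.78 and 10.77 in the transgene-only pristane mice. In irradiated mice it ranged over 8.16, 8.38 and 9.28 (lowest, median, highest, n = 9) and in SRBC-alone mice over 8.01, 8.34 and 9.05 (n = 8). All 5 pristane mice lay above all SRBC-alone mice, but the diseased pristane mouse lay within the irradiated range. The Oas1g mean was 10.01 ± 0.63 in pristane mice, 8.51 ± 0.41 in irradiated mice and 8.40 ± 0.35 in SRBC-alone mice (SD, n = 5, 9 and 8).

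Oas2, a synthetase with repeated OAS units, read 7.47 in the diseased Bim-deleted pristane mouse, 8.04 and 8.62 in the non-diseased Bim-deleted and 7.85 and 8.99 in the transgene-only pristane mice. It spanned 6.85, 7.13 and 7.36 in irradiated mice and 6.66, 6.84 and 7.20 in SRBC-alone mice (lowest, median, highest). For Oas2, the pristane mice overlapped neither of the other groups. The means were 8.19 ± 0.61 in pristane mice, 7.12 ± 0.18 in irradiated mice and 6.91 ± 0.19 in SRBC-alone mice (SD, n = 5, 9 and 8).

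Oasl1, the OAS-like repressor of Irf7 translation, read 7.05 in the diseased Bim-deleted pristane mouse, 7.83 and 7.70 in the non-diseased Bim-deleted and 7.81 and 8.03 in the transgene-only pristane mice. Irradiated mice spanned 6.98, 7.18 and 7.42 and SRBC-alone mice 6.74, 7.02 and 7.26 (lowest, median, highest). The 4 pristane mice without disease were above every other mouse, and the diseased one was among the others. Oasl2, which unlike Oasl1 keeps synthetase activity, read 7.73 in the diseased Bim-deleted pristane mouse, 8.22 and 8.55 in the non-diseased Bim-deleted and 8.20 and 9.25 in the transgene-only pristane mice. It spanned 7.19, 7.49 and 8.44 in irradiated mice and 7.13, 7.29 and 8.39 in SRBC-alone mice. The Oasl2 groups overlapped through diseased mice, since the highest irradiated mouse and the highest SRBC-alone mouse both had disease.

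Among the 4 genes near background, Oas3, the synthetase with the most OAS units, read 6.68 in the diseased Bim-deleted pristane mouse, 6.89 and 6.91 in the non-diseased Bim-deleted and 6.59 and 7.17 in the transgene-only pristane mice. Its range was 6.51 to 6.84 in irradiated mice and 6.52 to 6.66 in SRBC-alone mice. Oas1a read 6.49, 6.76, 6.63, 6.65 and 6.92 in the pristane mice in the same order, against 6.43 to 6.57 under irradiation and 6.44 to 6.56 under SRBC alone. Its 4 pristane mice without disease were again above every other mouse. Oas1b read 6.74, 6.77, 6.96, 6.82 and 7.10 in the pristane mice, against 6.63 to 6.81 in irradiated and 6.62 to 6.95 in SRBC-alone mice. Oas1c stayed between 6.66 and 6.75 in pristane mice, 6.63 and 6.80 in irradiated mice and 6.59 and 6.80 in SRBC-alone mice, with complete overlap.

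**Figure D1:**
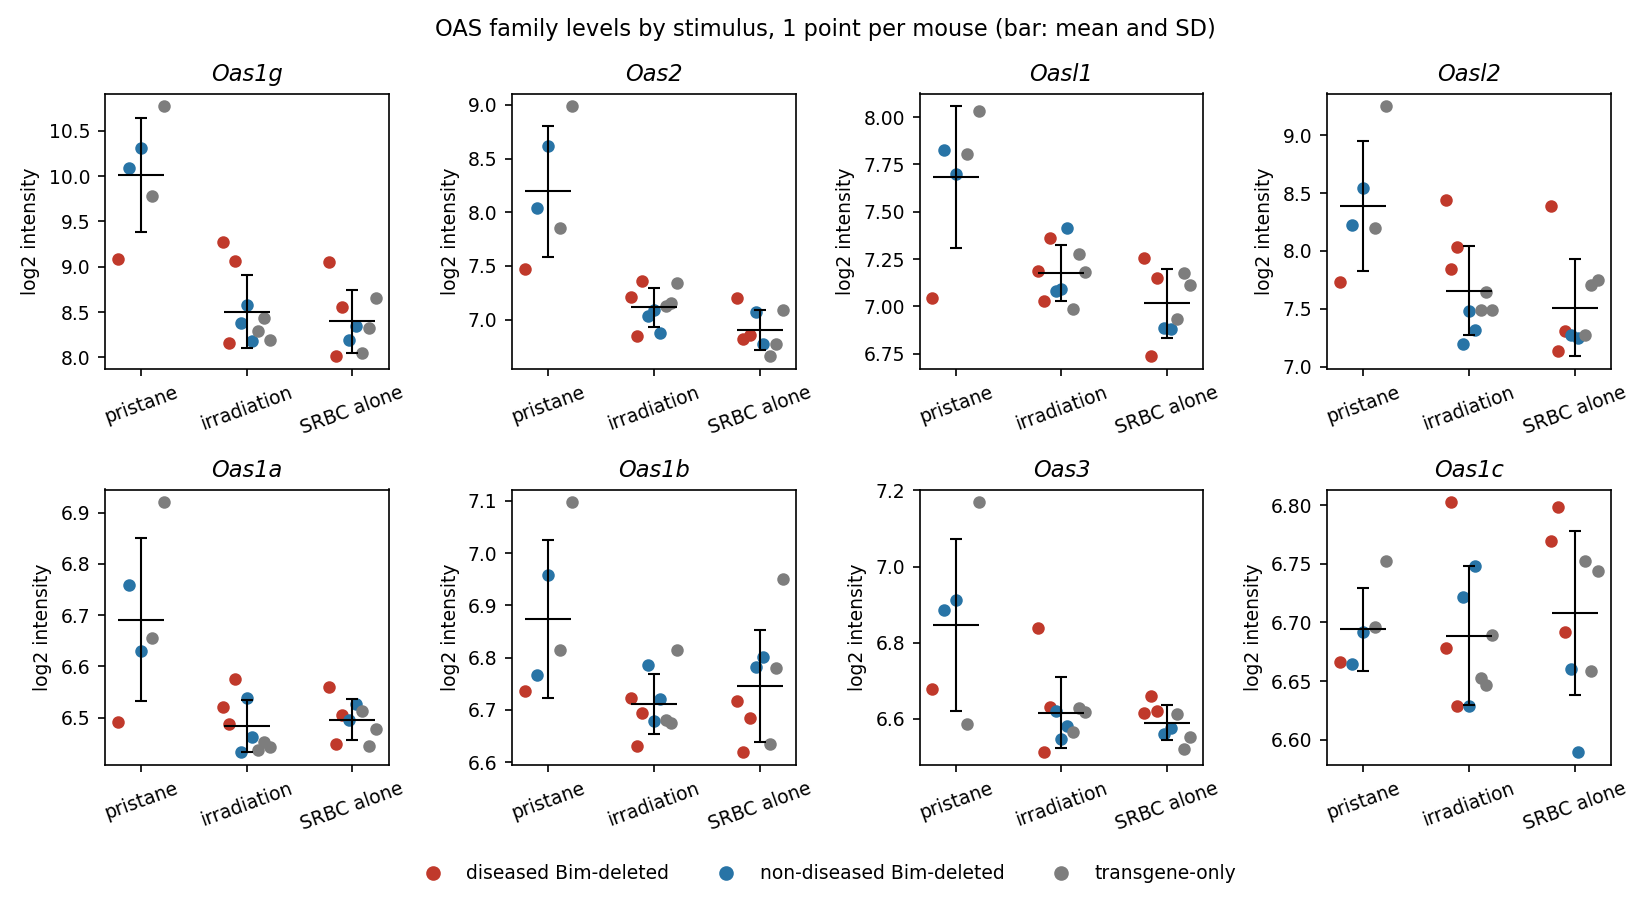
Log2 intensity of the 8 OAS genes in 22 spleens, grouped by stimulus (pristane, irradiation, SRBC alone), with 1 point per mouse coloured by genotype and disease, and bars for the mean and SD. Oas2 in pristane mice (7.47 to 8.99) lies above every irradiated and SRBC-alone mouse, and the diseased pristane mouse is below the other 4 for Oas1g, Oas2, Oasl1 and Oasl2; vertical scales differ between genes.

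In an additive limma model with a term for genotype and disease, the difference of pristane from SRBC alone was 1.63 ± 0.26 (SE) on the log2 scale for Oas1g, or 3.09-fold. It was 1.28 ± 0.19 for Oas2, 0.94 ± 0.24 for Oasl2 and 0.65 ± 0.13 for Oasl1. The near-background genes followed with 0.26 ± 0.07 for Oas3, 0.19 ± 0.05 for Oas1a, 0.11 ± 0.05 for Oas1b and -0.01 ± 0.03 for Oas1c. The median over the 8 genes was 0.46, against 0.00 over all 20463 features. Pristane and SRBC-alone mice did not overlap, with pristane higher, for 2 of the 8 genes (Oas1g and Oas2), and for 0.171% of all features. This contrast served to pick the family, so nothing is read from the share. Against irradiated mice the pristane difference was 1.52 ± 0.25 for Oas1g, 1.06 ± 0.18 for Oas2, 0.76 ± 0.23 for Oasl2 and 0.49 ± 0.12 for Oasl1. Only Oas2 showed no overlap there, as did 0.21% of all features. These 2 comparisons share the pristane mice, whose levels served to pick the family, so nothing is read from this share either.

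Restricting the comparison to the 15 mice without disease widened it. Pristane exceeded SRBC alone by 1.93 ± 0.18 for Oas1g, 1.51 ± 0.20 for Oas2, 1.13 ± 0.17 for Oasl2 and 0.85 ± 0.09 for Oasl1. The other differences were 0.32 ± 0.08 for Oas3, 0.25 ± 0.05 for Oas1a, 0.12 ± 0.07 for Oas1b and 0.02 ± 0.04 for Oas1c, and the median of the 8 was 0.59. The marker medians widened with it: in these 15 mice the pristane difference from SRBC alone was -0.81 for B cells, -1.23 for T cells, -0.62 for plasmacytoid dendritic cells, 1.07 for neutrophils and 1.02 for erythroid cells, and their part in the OAS values was not tested. The 4 pristane mice lay above all 5 SRBC-alone mice for 5 genes, Oas1a, Oas1g, Oas2, Oasl1 and Oasl2, and for 1.77% of all features. They lay above all 6 irradiated mice for the same 5 genes, and for 1.14% of all features. The family was picked for its levels in pristane mice, so nothing is read from these shares either.

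OAS levels under irradiation and SRBC alone overlapped for all 8 genes. The difference of irradiation from SRBC alone ran from -0.04 ± 0.05 for Oas1b to 0.21 ± 0.16 for Oas2, with 0.11 ± 0.22 for Oas1g, 0.17 ± 0.20 for Oasl2 and 0.16 ± 0.11 for Oasl1. The median was 0.07. For none of the 8 genes did the groups separate, and among all features 0% separated upward and 0.00977% downward. By group means the order was pristane, irradiation, SRBC alone for Oas1g, Oas2, Oas3, Oasl1 and Oasl2, and the irradiation and SRBC-alone groups overlapped in each of these 5. Their means were closer than the SD of either group for Oas1g, Oas3 and Oasl2, but not for Oas2, 0.21 apart with SDs of 0.18 and 0.19, nor for Oasl1, 0.16 apart with SDs of 0.15 and 0.18. For Oas1a, Oas1b and Oas1c the mean was lower under irradiation than under SRBC alone, by less than either SD.

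**Figure D2:**
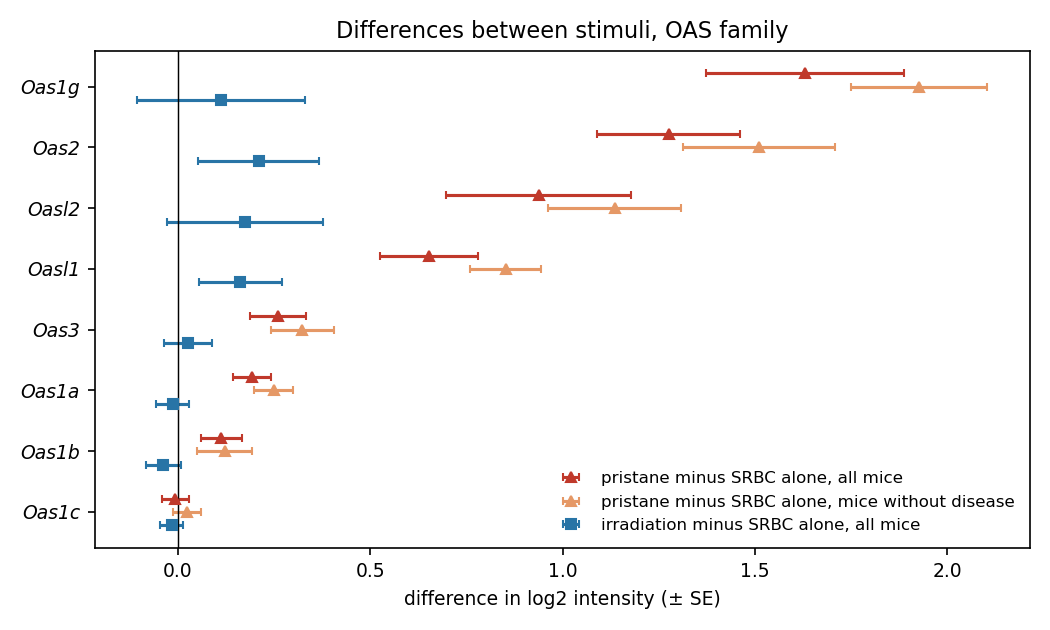
Differences in log2 intensity with SE for each OAS gene, for pristane minus SRBC alone in all 22 mice, the same in the 15 mice without disease, and irradiation minus SRBC alone. Pristane differences run from 1.63 for Oas1g to -0.01 for Oas1c, and irradiation differences lie between -0.04 and 0.21.

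The diseased pristane mouse was below all 4 non-diseased pristane mice for 6 of the 8 genes (Oas1a, Oas1b, Oas1g, Oas2, Oasl1 and Oasl2), as were 16.4% of all features, and above all 4 for none, as were 19% of features. With 1 mouse in that group there is no test of disease under pristane. Its B cell marker level was 9.19, like the first transgene-only pristane mouse at 9.20, and against 8.10 and 8.65 in the non-diseased Bim-deleted and 7.79 in the second transgene-only pristane mouse.

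Cell markers moved with pristane as well. The median difference of pristane from SRBC alone was -0.65 over 5 B cell genes, -0.72 over 5 T cell genes, -0.43 over 5 plasmacytoid dendritic cell genes, 0.79 over 7 neutrophil genes and 0.58 over 4 erythroid genes. The median was close to 0 for 7 monocyte and macrophage genes, but these ran from -0.13 to 0.88. Their mean level was 9.03 in pristane mice and 8.85 in SRBC-alone mice. For 6 dendritic cell genes, 4 of which (Itgax, Flt3, Xcr1 and Cd209a) were under 7 in every mouse, the median was also close to 0. Per mouse, the plasmacytoid dendritic cell list, the cells best known for making type I interferon, ran from 7.92 to 9.16 in pristane mice, 9.01 to 9.33 in irradiated and 8.74 to 9.36 in SRBC-alone mice. The first transgene-only pristane mouse had B cell (9.20) and T cell (9.71) levels within the SRBC-alone range and neutrophil (7.21) and erythroid (7.04) levels below it. Its Oas1g (9.78), Oas2 (7.85), Oasl1 (7.81) and Oas1a (6.65) were above every mouse without pristane. In the same mouse Oasl2 (8.20) was below the highest irradiated (8.44) and SRBC-alone (8.39) mice. Its Oas3 (6.59), Oas1b (6.82) and Oas1c (6.70) were within the SRBC-alone range. The second had the highest neutrophil (13.06) and erythroid (12.78) levels of all 22 spleens, the lowest B cell level and the highest Oas1g, Oas2, Oasl1 and Oasl2. Without the first of these mice the Oas1g difference was 1.69 and the Oas2 difference 1.39, and without the second they were 1.41 and 1.07. Oas3 and Oas1a depended more on the second mouse, at 0.17 and 0.13 without it, and Oas1b fell to 0.06. The part of cell content in the OAS differences was not tested.

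**Figure D3:**
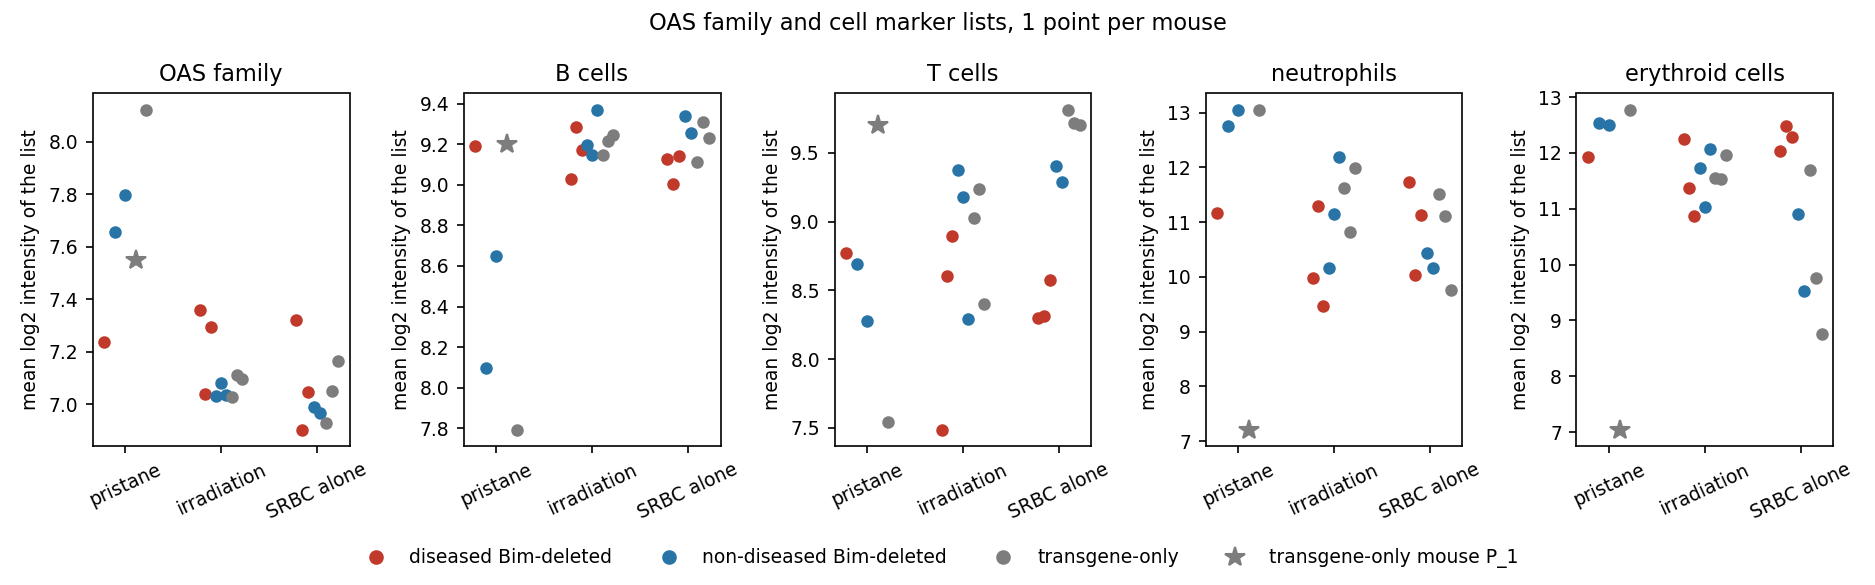
Mean log2 intensity of the OAS family and of B cell, T cell, neutrophil and erythroid marker lists in each of 22 spleens, by stimulus, with points coloured by genotype and disease and a star for the first transgene-only pristane mouse. That mouse has an OAS level of 7.55, above every mouse without pristane, with neutrophil and erythroid levels of 7.21 and 7.04, the lowest of all spleens.

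Disease and Bim deletion were compared next, with all stimuli pooled, using limma with Benjamini-Hochberg adjustment over the 20463 features. Oas1g spanned 8.01, 9.05 and 9.28 in diseased Bim-deleted mice, 8.18, 8.38 and 10.31 in non-diseased Bim-deleted mice and 8.05, 8.38 and 10.77 in transgene-only mice (lowest, median, highest, n = 7, 7 and 8). Oas2 spanned 6.82, 7.20 and 7.47 in diseased Bim-deleted mice, 6.77, 7.07 and 8.62 in non-diseased Bim-deleted mice and 6.66, 7.14 and 8.99 in transgene-only mice. Oasl1 spanned 6.74, 7.15 and 7.36 in diseased Bim-deleted mice, 6.88, 7.09 and 7.83 in non-diseased Bim-deleted mice and 6.93, 7.18 and 8.03 in transgene-only mice. Oasl2 spanned 7.13, 7.84 and 8.44 in diseased Bim-deleted mice, 7.19, 7.31 and 8.55 in non-diseased Bim-deleted mice and 7.28, 7.68 and 9.25 in transgene-only mice. In each of these genes the diseased group had the lowest maximum of the 3 groups, and for Oas1g, Oas2 and Oasl2 the highest median. All groups overlapped for each of them.

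None of the 8 genes passed the adjusted threshold of 0.05 when Bim-deleted mice with disease were compared with those without, whereas 1.83% of all features did (1.16% rose and 0.665% fell). The differences were 0.23 ± 0.29 for Oasl2 (95% interval -0.38 to 0.83, adjusted p = 0.791 by limma), -0.25 ± 0.32 for Oas2 (adjusted p = 0.794) and -0.12 ± 0.43 for Oas1g (adjusted p = 0.936). Oas1b, at -0.10 ± 0.06, had the lowest adjusted p by limma, 0.459. Intervals of this width cannot show that the groups are alike: that of Oas1g ran from -1.01 to 0.77. None of the 8 passed between non-diseased Bim-deleted and transgene-only mice either, where 0% of all features passed. The differences there ran from -0.24 ± 0.28 for Oasl2 to 0.06 ± 0.41 for Oas1g. Between diseased Bim-deleted and transgene-only mice 5.22% of features passed and again none of the 8, with differences from -0.27 ± 0.31 for Oas2 to 0.02 ± 0.03 for Oas1c. At an unadjusted p under 0.05 by limma, 0, 0 and 1 of the 8 (Oas1b) passed in these 3 comparisons. The diseased mice supplied 1 pristane mouse to these comparisons and each of the other groups 2. With stimulus as a covariate (1.78% of features passed, and none of the 8) the Oasl2 difference of diseased from non-diseased Bim-deleted mice was 0.36 ± 0.23 (adjusted p = 0.482 by limma) and that of Oas1g 0.11 ± 0.24 (adjusted p = 0.877 by limma).

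**Figure D4:**
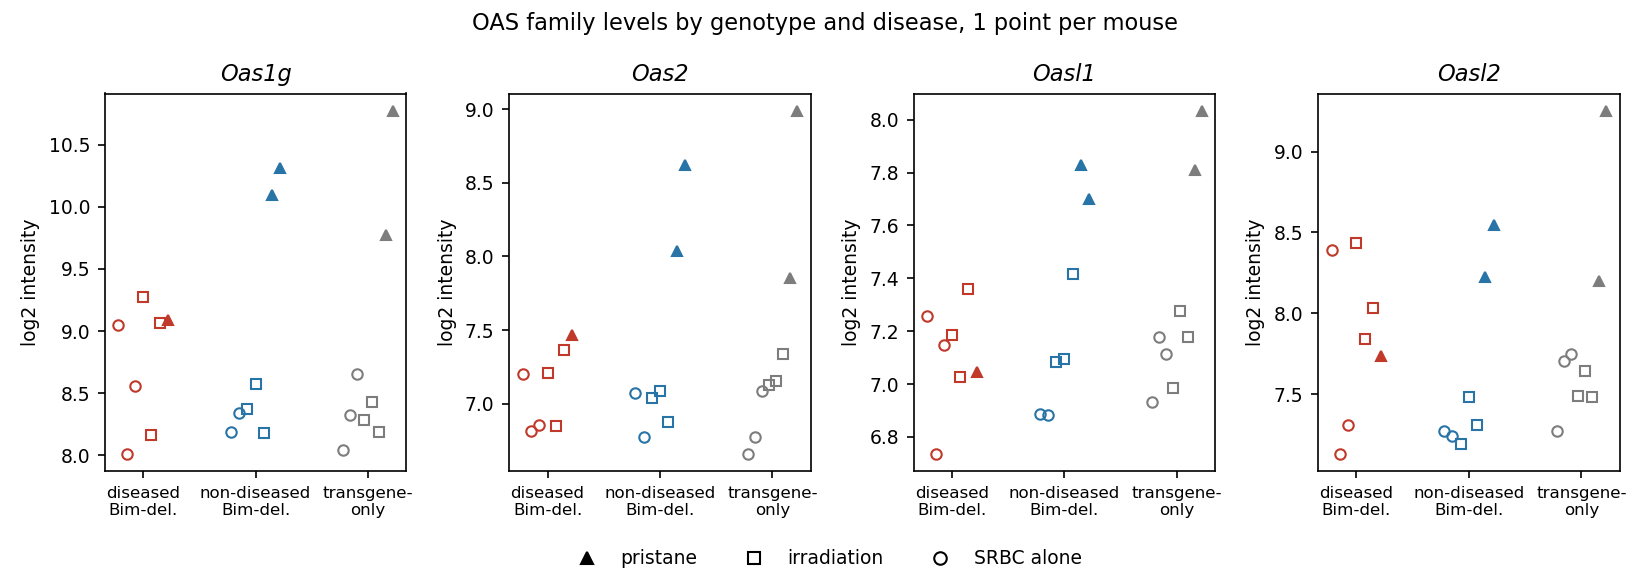
Log2 intensity of Oas1g, Oas2, Oasl1 and Oasl2 in diseased Bim-deleted, non-diseased Bim-deleted and transgene-only spleens, 1 point per mouse, with filled triangles for pristane, squares for irradiation and circles for SRBC alone. The top values in the groups without disease are pristane mice, whereas 4 of the 6 diseased mice without pristane lie above 7.75 for Oasl2, the highest value among the 11 mice with neither.

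Among the 17 mice without pristane, 4 of the 8 genes had at least 3 of the 6 diseased mice above all 11 non-diseased mice, as did 10.3% of all features. These were Oasl2 with 4 diseased mice and Oas1g, Oas3 and Oas1c with 3 each. Oas1a had 2, Oas2 had 1, and Oas1b and Oasl1 had none. Oas3 and Oas1c are near background and their margins were small. The lowest of the 3 Oas3 mice read 6.631, against 6.628 in the highest non-diseased mouse. The 3 Oas1c mice read 6.77 to 6.80, against 6.75. Oasl2 in the irradiated animals was 8.44, 7.84 and 8.03 in diseased Bim-deleted, 7.19, 7.48 and 7.31 in non-diseased Bim-deleted and 7.49, 7.64 and 7.49 in transgene-only mice. Under SRBC alone it was 8.39, 7.13 and 7.31 in diseased Bim-deleted, 7.27 and 7.24 in non-diseased Bim-deleted and 7.28, 7.71 and 7.75 in transgene-only mice. So on this brightest Oasl2 probe the irradiated diseased mice were separate from both other irradiated groups, while under SRBC alone a single diseased mouse was high. The second kept Oasl2 probe, nearer background, did not show that separation. It read 6.95, 6.57 and 6.67 in irradiated diseased mice. Its range was 6.54 to 6.64 in irradiated non-diseased Bim-deleted mice and 6.58 to 6.64 in irradiated transgene-only mice. Irradiated diseased and non-diseased Bim-deleted mice did not overlap for Oasl2 alone of the 8 genes, with diseased higher, and for 6.57% of all features. Irradiated diseased Bim-deleted and transgene-only mice did not overlap for Oasl2 and Oas1a, with diseased higher, and for 8.97% of features. Irradiated non-diseased Bim-deleted mice were wholly below irradiated transgene-only mice for Oas2 and Oasl2, as were 4.54% of features. For Oasl2 the nearest mice of these groups were almost level, at 7.482 and 7.485, and the groups overlapped on its second kept probe.

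For Oas1g, 3 of the 6 diseased mice without pristane (9.28, 9.05 and 9.07) exceeded 8.66, the highest of the 11 non-diseased mice without pristane. For Oasl2, 4 of the 6 exceeded the corresponding 7.75, as at least 4 did for 5.56% of all features. Without the pristane mice, the difference of diseased from non-diseased Bim-deleted mice was 0.56 ± 0.20 for Oasl2 (adjusted p = 0.128 by limma) and 0.36 ± 0.20 for Oas1g (adjusted p = 0.354 by limma). It was 0.08 ± 0.13 for Oas2 and 0.05 ± 0.11 for Oasl1, and none of the 8 passed, where 3.94% of features did. Against transgene-only mice, diseased Bim-deleted mice differed by 0.37 ± 0.19 for Oas1g and 0.30 ± 0.19 for Oasl2 (adjusted p = 0.235 and 0.343 by limma), with 13.1% of features past the threshold and none of the 8. At an unadjusted p under 0.05 by limma, 1 gene passed in each of these comparisons, Oasl2 in the first and Oas1a in the second. The disease difference under irradiation less that under SRBC alone was 0.42 ± 0.45 for Oasl2 and 0.18 ± 0.46 for Oas1g (adjusted p = 0.987 and 0.990 by limma), and 0% of features passed, with 0 of the 8 at an unadjusted p under 0.05. Cell markers differed in the same mice: without pristane, the median difference of diseased from non-diseased Bim-deleted mice was -0.88 over 5 T cell genes, of which 1 fell, 0.85 over 4 erythroid genes, all above 0 with none passing, and -0.23 over 7 neutrophil genes, with none passing. It was 0.00 over 5 B cell genes, of which 1 fell. The part of these cells in the OAS values was not tested.

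Other genes of the interferon pathway are given from lists drawn up with earlier results of these data known. Of 12 listed interferon genes, the ligands, 4 were measured, with pristane differences from SRBC alone between -0.06 and 0.05, and Ifna1 and Ifne were under 7 in every mouse. Of the receptors and signal transducers 13 of 15 were measured, with a median pristane difference of -0.05 and 6 of the 13 above 0. Within that list Irf7 and Usp18, a brake on the interferon receptor, stood at 1.15 ± 0.21 and 1.16 ± 0.23, whereas Irf9 stood at 0.27 ± 0.14, Stat2 at 0.10 ± 0.09 and Irf3 at -0.33 ± 0.09. Irf9 and Stat2 are parts of the factor that binds the interferon-stimulated response element.

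Irf7 had a log2 mean of 8.52 ± 0.52 in pristane mice, 7.43 ± 0.29 in irradiated and 7.40 ± 0.31 in SRBC-alone mice (SD, n = 5, 9 and 8), an order like that of Oas1g. Cgas, the DNA sensor whose enzyme shares the OAS fold, had a pristane difference of 0.50 ± 0.15, and Abce1, which helps recycle ribosomes, and Pde12, which degrades oligoadenylates, had 0.02 ± 0.07 and 0.01 ± 0.06. Among other sensors, 10 of 11 were measured and their median difference was 0.09. Eif2ak2, the kinase PKR that also binds double-stranded RNA, stood at 0.93 ± 0.20, Dhx58, a helicase of the RIG-I family, at 0.45 ± 0.12 and Ddx58, which is RIG-I itself, at -0.12 ± 0.07. Ifih1 and Ifit1 were at background, between 6.41 and 6.55 and between 6.43 and 6.53 over the 22 mice.

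All 13 measured effectors of 15 listed had pristane differences above 0, from 0.04 to 1.54, with a median of 0.33. Isg15, the ubiquitin-like modifier, had the top value, 1.54 ± 0.49, with means of 10.81 ± 1.24 in pristane, 9.53 ± 0.81 in irradiated and 9.44 ± 1.04 in SRBC-alone mice. With all stimuli pooled, no pathway gene on these lists passed in Bim-deleted mice with disease compared with those without. Without the pristane mice, Isg15 rose by 1.44 ± 0.34 (adjusted p = 0.0302 by limma) and Cmpk2, a mitochondrial nucleotide kinase, by 0.53 ± 0.13 (adjusted p = 0.0407 by limma) in that comparison, where 1.56% of features rose, 2.38% fell and no OAS gene passed. Between diseased Bim-deleted and transgene-only mice, Ifnar2 and Ifngr2, subunits of the interferon receptors, fell by 0.29 and 0.55 (adjusted p = 0.00307 and 0.0208 by limma), as did 2.98% of features, while 2.24% rose. Adar, the RNA-editing deaminase, fell by 0.31 (adjusted p = 0.0354 by limma), but without the pristane mice its difference was -0.21 and did not pass (adjusted p = 0.106 by limma). Without pristane, Isg15 and Isg20, an exonuclease, rose in that comparison by 1.45 ± 0.32 and 0.85 ± 0.21 (adjusted p = 0.00894 and 0.0154 by limma), and Ifnar2, Ifngr2, Ifngr1 and Irf3 fell by 0.32, 0.67, 0.28 and 0.27, with adjusted p between 0.00518 and 0.0379 by limma. There, 5.18% of features rose and 7.97% fell.

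**Figure D5:**
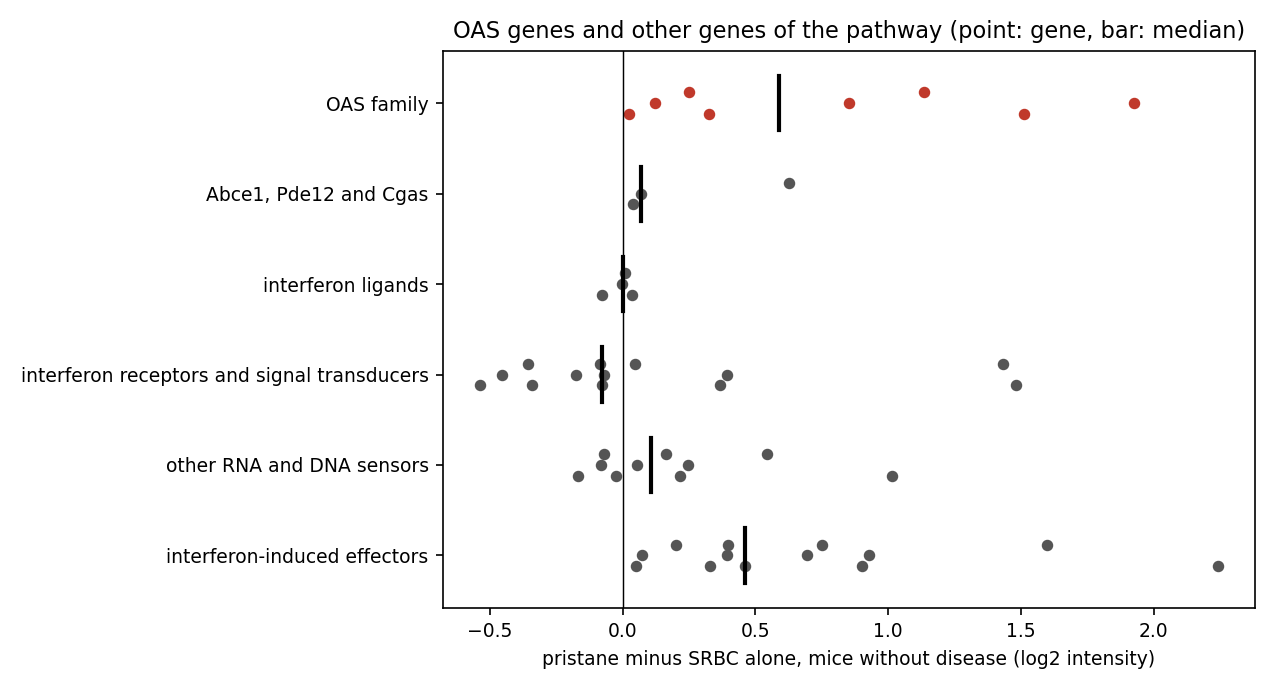
Pristane minus SRBC alone in the 15 mice without disease, in log2 intensity, for the 8 OAS genes and for other genes of the interferon pathway by list, with 1 point per gene and a bar at each list's median. The OAS median is 0.59, the interferon ligands sit near 0, and the top effector, Isg15, stands at 2.24.

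Across the 22 mice, the 8 members were not equally alike. As a description, the Pearson correlation of each member with the family mean (the average of gene-centred log2 intensities, which contains that member) was 0.98 for Oas1g, 0.96 for Oas2, 0.93 for Oasl2, 0.90 for Oasl1 and Oas1a, 0.86 for Oas3, 0.71 for Oas1b and 0.04 for Oas1c. In the 17 mice without pristane these values were 0.94 for Oas1g and 0.92 for Oasl2, but 0.73 for Oas2, 0.67 for Oasl1, 0.50 for Oas1a, 0.48 for Oas3, 0.18 for Oas1b and -0.11 for Oas1c. The family mean was 0.02 in the diseased Bim-deleted pristane mouse, 0.44 and 0.58 in the non-diseased Bim-deleted and 0.33 and 0.91 in the transgene-only pristane mice. Of the mice without pristane, 3 diseased ones were highest, at 0.14, 0.10 and 0.07, and the other 14 were between -0.32 and -0.05.

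The 8 named genes outside the family whose levels followed this mean most closely over 22 mice were Irf7 (Pearson correlation 0.96), Rtp4 (0.95), Usp18 (0.92), Csf2ra (0.90), Lrg1 (0.89), Cgas (0.89), Ifitm3 (0.88) and Parp12 (0.88). The pristane mice carry much of this likeness: without them the correlations were 0.88 for Irf7, 0.78 for Rtp4, 0.74 for Usp18, 0.72 for Csf2ra, 0.52 for Lrg1, 0.64 for Cgas, 0.62 for Ifitm3 and 0.55 for Parp12. All of these points share an array platform and a joint normalization, and they were ranked on these same mice.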

How the data were processed

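Values are the deposited log2 intensities, normalized by the authors; every array has the same distribution, and background correction and software were not given in the sources used. Symbols came from the platform annotation (34885 probes with 1 symbol, 18 with several, 10378 with none). The 44 value columns of the unnormalized table carry names that match no sample label and were not used. Probes above the 40th percentile in at least 7 arrays were kept, and the brightest probe stood for each named gene. Kept probes without a single symbol stayed as separate features. Limma 3.58.1 in R 4.3.3 compared the 3 classes with a mean each; stimulus differences came from a model of class plus stimulus, without a test. The threshold was an adjusted p of 0.05, two-sided. The fit was tested on simulated data. Promoters were searched with Biopython 1.88. Members, pathway lists and markers were chosen with earlier results of these data known. All members were named, with preset pathway genes, list members past a test, and the 8 genes most like the family. Mice are separate animals by title, but nothing names litters or batches. The design text counts fewer transgene-only mice than the 8 that the titles list; all 8 were used.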

Additional observations from a re-analysis of the deposited data

Results flagged for a closer look

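The second transgene-only pristane mouse lay far above the other 7 transgene-only mice for 3 genes. Its log2 intensity was 6.92 for Oas1a, where the nearest mouse had 6.654, 7.17 for Oas3, where the nearest had 6.628, and 9.253 for Oasl2, where the nearest had 8.2. For Oas1a and Oasl2 the nearest was the other transgene-only pristane mouse. One irradiated diseased Bim-deleted mouse stood apart among the 9 irradiated mice for Oas3, at 6.838 against 6.631 for the nearest. These 4 came from 48 sets of mice examined, of which chance alone gives about 5%.

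For 2 genes the disease difference among Bim-deleted mice ran opposite ways under 2 stimuli, with no overlap on either side, as for 16.7% of all features. Oas3 was higher by 0.06363 in diseased than in non-diseased mice under SRBC alone, and the difference was -0.222 under pristane. Oasl2 was higher by 0.7749 in diseased irradiated mice, and the difference was -0.6507 under pristane. Pristane had 1 diseased mouse, so these contrasts between stimuli were not tested. Oas3 is near background.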

How the results depend on the processing

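Of the 8 genes, 0 passed in each of the 3 class comparisons and in the interaction, under the 34 (interaction: 30) alternatives run: other probe filters, probe summaries, moderation settings, array weights, Xist level as a covariate, a replicate block, other sets of mice, and each mouse left out (0 to 0). With the stricter probe filter Oas1a had no kept probe, so 7 genes were tested. Differences changed sign without being called: diseased minus non-diseased Bim-deleted ran from -0.65 (Xist covariate) to 0.36 (without pristane mice) for Oas1g and from -0.70 to 0.08 under the same settings for Oas2, and diseased minus transgene-only from -0.39 to 0.37 for Oas1g. With the replicate block, 0 genes passed and the pristane difference from SRBC alone had a median of 0.48; the title numbers do not pair mice (median correlation of deviations -0.06 for same-numbered and 0.04 for other pairs), so this is a hint only. That median ranged from 0.33 to 0.65 over 33 alternatives (0.37 to 0.58 leaving out single mice), pristane minus irradiation from 0.28 to 0.49, and irradiation minus SRBC alone from 0.00 to 0.11. The 0.65 equals the main-model Oasl1 difference, which is the median over the 7 genes left by the stricter probe filter. It reflects which genes were counted. Oas3 fell to 0.13 with the mean of its kept probes, by averaging in a background probe. At an unadjusted p under 0.05, Oas1b alone passed for disease in Bim-deleted mice, by an exact permutation test over 3432 splits (two-sided p = 0.0117, higher in non-diseased); limma gave 0 of 8 there. Small groups, above all 5 pristane mice with 1 diseased, and 4 genes near background limit what these arrays can show.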

Other observations

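A further 4 Oas1 genes had probes on the array but are not members, since they were left out of the family as defined. One Oas1d probe read 7.04 ± 0.21 in pristane mice, 6.81 ± 0.14 in irradiated mice and 6.80 ± 0.10 in SRBC-alone mice (SD, n = 5, 9 and 8). The other Oas1d probe and the probes of Oas1e, Oas1f and Oas1h stayed between 6.37 and 6.71 in all 22 mice, around the edge of background; the Oas1e probe was above its array's 40th percentile on 12 of the 22 arrays.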
